A study of Mus musculus with 32 samples.

Results

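KCl depolarization was applied to WT and Mettl3 KO hippocampal neurons, and the difference between the genotypes in the RNA response of the soma was measured for each gene. This difference, called the interaction, is (Mettl3 KO KCl minus Mettl3 KO Ctrl) minus (WT KCl minus WT Ctrl) on the log2 scale, so a positive value means that the KCl-to-Ctrl ratio was higher in Mettl3 KO (KO) than in WT. Genes were included when their mean count over the 8 soma RNA-seq libraries was at least 10, which held for 24058 of the 55573 genes of the count table. The series holds 32 samples, of which 16 are RNA-seq libraries of soma and neurites. WT neurons came from newborn C57BL/6 mice and KO neurons from newborn Mettl3Flox/Flox mice. Both genotypes were transduced at day 7 in vitro (DIV 7) with AAV expressing Cre-P2A-dTomato at 50000 vector genomes per cell, so the WT controls carried Cre too. All cultures were silenced from DIV 14 for 16 h with the sodium channel blocker TTX at 1 µM and the NMDA receptor blocker D-AP5 at 50 µM. At DIV 15 they were left without KCl (Ctrl) or received 55 mM KCl for 2 h. Each of the 4 groups holds 2 libraries from different litters, with pups of a litter pooled, and Ctrl and KCl neurons came from the same litter according to the methods. That libraries of the same replicate number share a litter was assumed here, and litter 1 and litter 2 stand for replicate numbers 1 and 2 of a genotype. Cre was driven by hSyn, a neuronal promoter, so the deletion was aimed at neurons and not at other cells of the culture. The genotypes also differ in strain and litter, and genotype, strain and litter cannot be told apart. The soma fraction was scraped from the top of a porous membrane and can hold neurites that did not cross it.

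Raised extracellular KCl depolarizes neurons and opens voltage-gated calcium channels. Calcium then acts through CaMK and MAPK kinases on CREB, SRF and MEF2, which switch on immediate early genes without new protein synthesis. Many of these encode transcription factors such as Fos, Egr1 and Npas4, others encode kinase phosphatases that end the signal, and a later set encodes secreted and synaptic proteins such as Bdnf and Homer1. Mettl3 is the catalytic subunit of the nuclear complex that writes N6-methyladenosine (m6A) into mRNA, and m6A marks mRNAs for YTH reader proteins that act on their decay, translation and localization.

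Mettl3 checked the labels. It had 1354 and 1048 counts in WT Ctrl and 815 and 927 in WT KCl, against 411 and 624 in KO Ctrl and 642 and 283 in KO KCl. All 4 KO libraries lay below all 4 WT libraries, and Mettl3 was not absent from any of them. In CPM (counts scaled to the library total after TMM normalization) it was at 18.7 and 17.98 in WT Ctrl, 16.8 and 14.02 in WT KCl, 9.5 and 12.6 in KO Ctrl and 9.34 and 6.65 in KO KCl. The floxed part of the gene is exon 4 and the other exons can still be counted, so the gene count checks the deletion only in part. Its interaction was −0.21 (SE 0.46, unadjusted p = 0.652), and its sign depended on the libraries, from −0.48 to 0.04 over the fits with 1 library left out.

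The 8 libraries held 41530537 to 71394235 counted fragments each. Library KO KCl replicate 1 stood apart from the other 7. It lay at 159 on the first principal component, which took 38.3% of the variance, while the others lay between −59.1 and 25.1. Its 13 neuron markers summed to 2957 CPM against 5238 to 8276 in the others, and its 12 interneuron markers to 530.0 against 1710 to 2842. Markers of other cells were higher there than in any other library. The 11 astrocyte markers summed to 10130 CPM against 1340 to 2860, the 10 oligodendrocyte lineage markers to 4741 against 96.9 to 165, and the 10 microglia markers to 513 against 19.0 to 38.5. The 14 fibroblast and vascular markers summed to 169 against 28.3 to 71.4 and the 10 dividing cell markers to 496 against 70.6 to 134. Among the other 7 libraries, astrocyte markers summed to 2304 to 2860 CPM in KO and 1340 to 1841 in WT. Oligodendrocyte lineage markers summed to 144 to 165 in KO and 96.9 to 109 in WT, and the other lists overlapped. In Ctrl all 11 astrocyte markers were higher in KO, against 50.8% of all genes. The part of this difference in other genes was not tested. No marker was at 0 in any library. In whole-fraction RNA, fewer cells of a type and less RNA per cell cannot be told apart. The log2 ratio of the replicates had an SD over genes of 0.34 in WT Ctrl, 0.52 in WT KCl, 1.08 in KO Ctrl and 1.12 in KO KCl, so the KO replicates differed more from each other than the WT replicates did, also without KCl. Interactions of most named genes are therefore given with their value when KO KCl replicate 1 is left out. This makes the remaining KO KCl library the only one of its group. Values with other libraries left out are given where the interaction moved most. An interaction printed without such a value is not thereby shown to be unaffected.

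**Figure D1:**
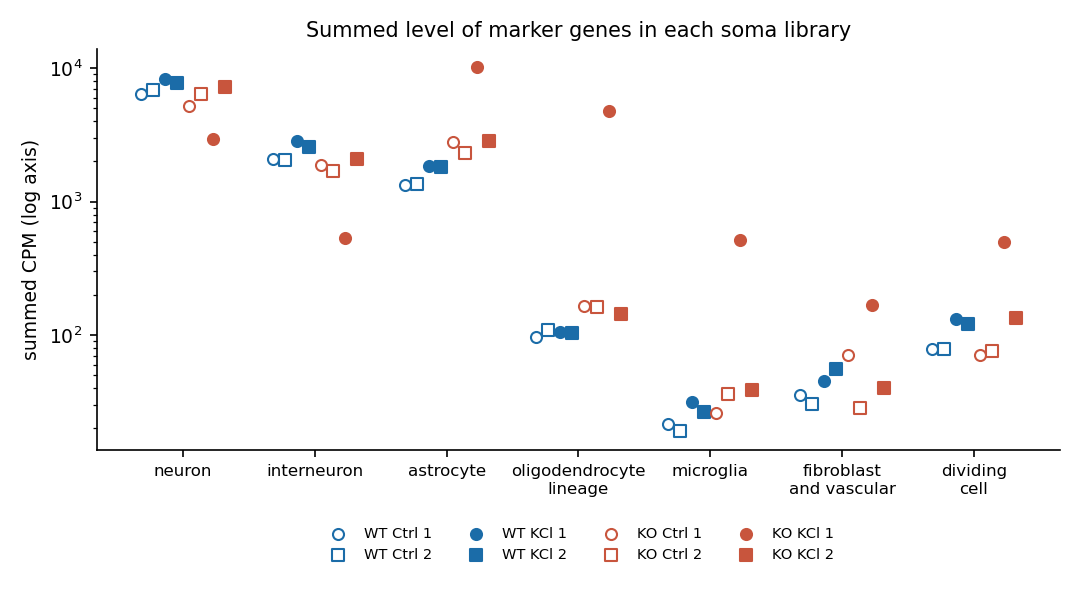
Summed CPM (log axis) of each marker list in each soma library; open symbols are Ctrl, filled symbols KCl, circles replicate 1 and squares replicate 2. KO KCl replicate 1 is lowest for neuron and interneuron markers and highest for the other 5 lists, for example at 4741 CPM for the oligodendrocyte lineage where the other 7 libraries lie between 96.9 and 165.

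The comparison asked for which genes the response to KCl differed between the genotypes. A gene was called at an adjusted p of at most 0.05 and a difference of at least 2-fold. With edgeR, 0 of 24058 genes were called in either direction (0%), and the smallest adjusted p was 0.985. At an unadjusted p of at most 0.05 and 2-fold, 312 genes had a larger (1.3%) and 258 a smaller (1.07%) response in KO. DESeq2 called 1 gene, Ccn1, as smaller in KO (0.00416%) and none as larger, with 521 larger (2.17%) and 311 smaller (1.29%) unadjusted. Limma with sample weights called 0 genes and had 265 larger (1.1%) and 170 smaller (0.707%) unadjusted. The intervals were wide. The median SE of an interaction was 0.65 on the log2 scale, the 95% interval lay within 2-fold in both directions for 599 genes, and it reached past 4-fold for 11785. The lack of calls therefore does not show that the responses were alike. Which libraries entered the fit decided the count of calls. Without KO Ctrl replicate 1, edgeR called 687 genes as larger and 100 as smaller in KO, and without KO KCl replicate 2 it called 137 and 15. Without any 1 of the other 6 libraries it called 0, with unadjusted counts between 85 and 376 for larger and 61 and 376 for smaller responses. Without KO KCl replicate 1 the unadjusted counts were 146 (0.607%) and 376 (1.56%). Without both libraries of KO litter 1 it called 1884 and 633 genes, and without both of KO litter 2 it called 2597 and 1321. In these last fits the remaining KO libraries have no replicate and are assumed to vary like the WT ones.

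The responses behind the interaction were measured in the same fit. In WT soma 213 genes rose (0.885%) and 15 fell (0.0623%), and in KO soma 100 rose (0.416%) and 7 fell (0.0291%). With the litter as a block the counts were 64 and 0 in WT and 25 and 0 in KO. Leaving out any 1 of the 4 WT libraries left 0 to 9 rises in WT and 0 to 5 in KO. Leaving out KO Ctrl replicate 2 left 237 in WT and 0 in KO, while leaving out KO Ctrl replicate 1 gave 2134 in KO, KO KCl replicate 2 gave 2024 and KO KCl replicate 1 gave 322 in WT and 102 in KO. The dispersion of a gene is shared by the 4 groups, so the spread of the KO libraries also enters the counts of WT calls. A gene past the threshold in WT and not in KO is not shown to differ, and the interaction is the test of that difference. The KCl-to-Ctrl log2 ratios of both KO litters lay above both WT litters in 16.5% of all genes and below both in 18.9%, which is the background for every count of separated genes given here.

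The 35 immediate early transcription factors responded to KCl in both genotypes. In WT 19 of 35 rose and in KO 16 of 35, against 0.885% and 0.416% of all genes. With the litter as a block 15 and 12 were called. Leaving out any 1 of the 4 WT libraries left 0 to 3 calls in either genotype, leaving out KO Ctrl replicate 2 left 0 in KO, and leaving out KO KCl replicate 2 gave 25 in KO. The median log2 response was 3.38 in WT and 3.34 in KO. By litter the medians were 2.99 and 3.35 in WT and 2.82 and 3.71 in KO, so the 2 KO litters lay on either side of the 2 WT litters. The interaction was below 0 for 22 of the 35 and above 0 for 13, with a median of −0.49 against 0.02 for all genes, of which 51.4% were above 0. Past the unadjusted threshold, 2 were larger (Myc and Cebpd) and 2 smaller (Jund and Fos) in KO, against 2.37% of all genes in either direction, and the ratios were separated upward in 5 and downward in 11. Without KO KCl replicate 1 the median was 0.04, with 16 below 0 and 19 above. For 31 of the 35 the 95% interval held 0, for none did it lie within 2-fold, and for 23 it reached past 4-fold.

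**Figure D2:**
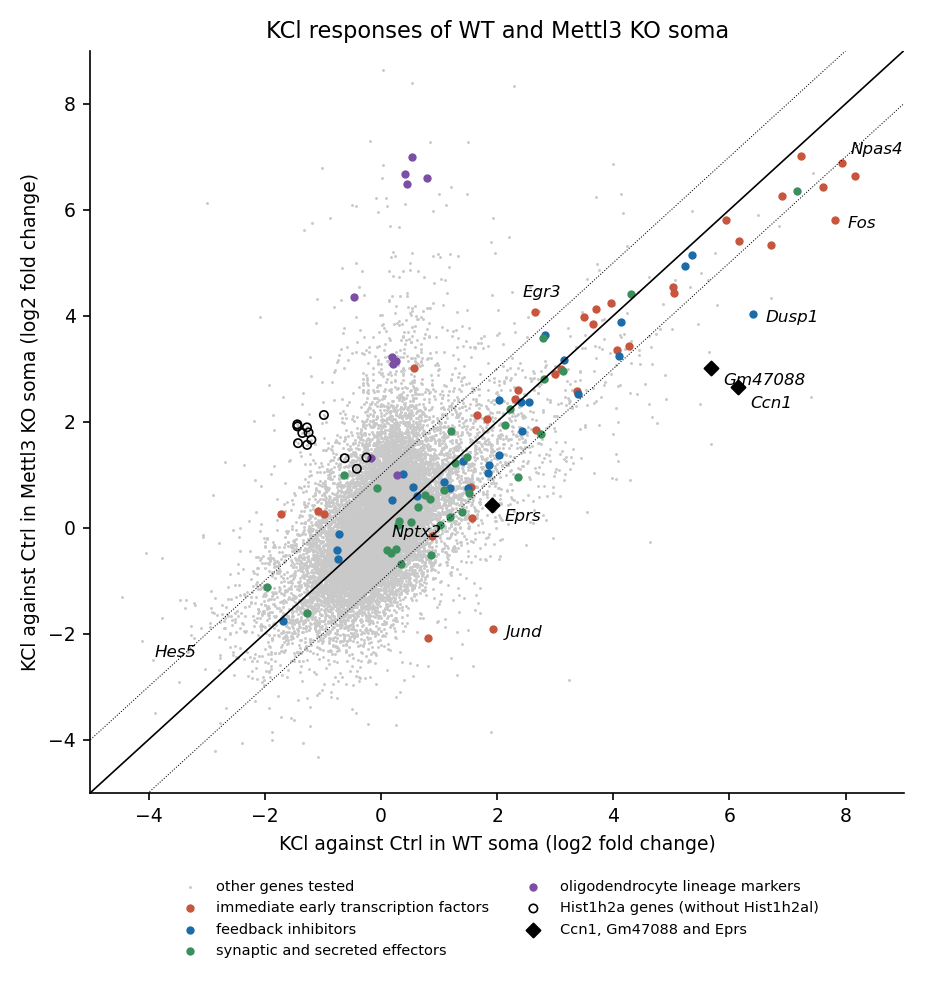
Log2 fold change of KCl against Ctrl in WT soma (x axis) and KO soma (y axis), 1 point per gene; the solid line marks equal responses and the dotted lines a 2-fold difference, and 2 of the 24058 genes lie outside the axes. Most immediate early factors lie between or near the dotted lines, Ccn1 lies below them at 6.14 in WT and 2.65 in KO, and 4 oligodendrocyte lineage markers lie near 0 in WT and above 6 in KO.

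Fos, the partner of Jun proteins in AP-1, was at 14.3 and 13.8 CPM in WT Ctrl and 3474 and 2861 in WT KCl. In KO it was at 40.2 and 66.8 CPM in Ctrl and 1371 and 4609.6 in KCl. Both KO Ctrl libraries were above both WT Ctrl libraries, and the KO KCl libraries lay on either side of the WT KCl ones. Fos rose 225-fold in WT and 55.9-fold in KO (edgeR adjusted p = 0.00742 and 0.0233), and its interaction was −2.01 (SE 0.79, unadjusted p = 0.033), or −1.38 without KO KCl replicate 1 and −3.13 without KO KCl replicate 2. Without KCl its KO minus WT difference was 1.92 (SE 0.57). The interaction subtracts this Ctrl difference, so both share the Ctrl libraries and are not separate evidence.

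Fosb was at 1.28 and 1.84 CPM in WT Ctrl and 363 and 530.5 in WT KCl, and at 1.78 and 4.17 in KO Ctrl and 138 and 459 in KO KCl. Npas4, a factor found mainly in neurons and induced by calcium entry, was at 5.59 and 5.25 CPM and then 939 and 1717 in WT, and at 12.8 and 13.3 and then 774 and 2311 in KO. Nr4a1, an orphan nuclear receptor, was at 4.97 and 4.65 and then 898 and 986 in WT, and at 7.46 and 10.6 and then 506 and 1060.3 in KO. In all 3 genes KO KCl replicate 1 was the lowest KCl library, and KO KCl replicate 2 lay above the lower WT KCl library. All 3 rose in both genotypes, and their interactions of −1.52, −1.05 and −1.18 had SEs of 0.86, 0.74 and 0.57 and did not pass the unadjusted threshold. They were −0.90, −0.46 and −0.74 without KO KCl replicate 1, and −2.63, −2.04 and −1.81 without KO KCl replicate 2.

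Egr1 was at 48.0 and 39.9 CPM in WT Ctrl, 1203 and 1683 in WT KCl, 94.3 and 86.0 in KO Ctrl and 659 and 3550.1 in KO KCl. The KO KCl libraries were the lowest and the highest of the 4 KCl libraries. Its interaction of −0.49 (SE 0.92) turned to 0.26 without KO KCl replicate 1 and was −2.17 without KO KCl replicate 2. Egr3, a related zinc finger factor, had 19.99 and 21.96 CPM in WT Ctrl, 116 and 147 in WT KCl, 12.1 and 13.2 in KO Ctrl and 88.4 and 335 in KO KCl. It rose in KO (16.8-fold, edgeR adjusted p = 0.0445) and was at 6.27-fold in WT (adjusted p = 0.0923), with an interaction of 1.42 (SE 0.75, unadjusted p = 0.0946), so a difference was not shown. The value was 2.08 without KO KCl replicate 1 and 0.16 without KO KCl replicate 2.

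Jund had the interaction farthest below 0 of the list, at −3.84 (SE 1.41, unadjusted p = 0.0248). It was at 10.2 and 7.21 CPM in WT Ctrl and 36.3 and 30.5 in WT KCl, and at 14.8 and 253 in KO Ctrl and 24.1 and 47.2 in KO KCl. KO Ctrl replicate 2 stood far above the other 3 Ctrl libraries, and without it the interaction was −0.65, against −3.44 without KO KCl replicate 1. Jund also overlaps a gene on the other strand. Myc, at 2.44 (SE 0.92, unadjusted p = 0.0285), was at 5.57 and 5.52 CPM in KO Ctrl and 75.7 and 13.6 in KO KCl, with all WT libraries between 5.61 and 9.05. The high library was KO KCl replicate 1, and without it the interaction was 0.72. Cebpd was at 13.3 and 13.4 CPM in WT Ctrl and 3.56 and 4.58 in WT KCl, and at 7.21 and 12.3 in KO Ctrl and 18.2 and 5.24 in KO KCl. Its interaction was 1.98 (SE 0.79) and 0.82 without KO KCl replicate 1, and it overlaps Spidr on the other strand.

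In Ctrl, before any KCl, 25 of the 35 factors were higher in KO than in WT, against 50.8% of all genes, and 9 of them passed the unadjusted threshold against 4.26% of all genes. The median difference was 0.39 on the log2 scale. Atf3, for example, was at 2.84 and 2.76 CPM in WT Ctrl and 6.93 and 6.63 in KO Ctrl, and at 354 and 318 in WT KCl and 217 and 828 in KO KCl. Its KO Ctrl libraries did not overlap the WT ones, and its KO KCl libraries lay on either side of them.

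**Figure D3:**
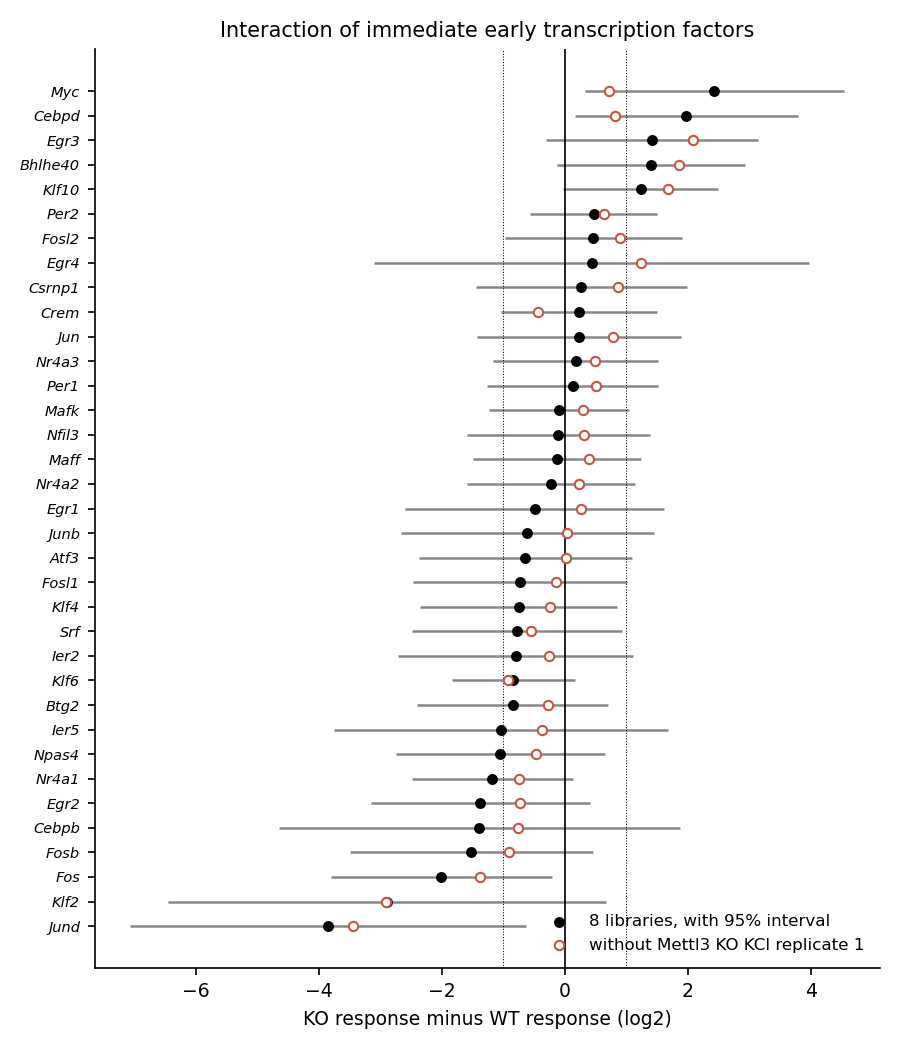
Interaction (KO response minus WT response, log2) of the 35 immediate early transcription factors; filled points with bars give the value from 8 libraries with its 95% interval, open points the value without KO KCl replicate 1, and dotted lines a 2-fold difference. The intervals of 31 factors cross 0, and for most factors with a value under 0 the open point lies closer to 0 or above it.

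The 27 genes listed as feedback inhibitors of kinase and G protein signalling include dual specificity phosphatases, which inactivate MAPKs, and RGS proteins, which turn off G proteins. The list also holds Gadd45 stress and activity genes, so it is not made up of inhibitors alone. In WT 9 of the 27 rose and in KO 7, against 0.885% and 0.416% of all genes, and 4 and 1 with the litter as a block. None was called in WT or KO when 1 WT library was left out, and none in KO without KO Ctrl replicate 2. Their median interaction was −0.18, and 0.16 without KO KCl replicate 1. Dusp1 was the 1 member past the unadjusted threshold (smaller in KO), and in 9 the ratios were separated downward and in 2 upward. In Ctrl 21 of the 27 were higher in KO, against 50.8% of all genes, and 3 of them passed the unadjusted threshold, against 4.26%.

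Dusp1 encodes a phosphatase of p38, JNK and ERK kinases. It was at 10.3 and 10.9 CPM in WT Ctrl and 986 and 812 in WT KCl, and at 20.9 and 31.3 in KO Ctrl and 191 and 666 in KO KCl. Both KO Ctrl libraries were above, and both KO KCl libraries below, the WT libraries of the same treatment. It rose 84.4-fold in WT and 16.4-fold in KO, and its interaction was −2.36 (SE 0.76, unadjusted p = 0.0142) and −1.73 without KO KCl replicate 1. The annotated span of Dusp1 overlaps other genes on both strands, and the counting was not stated to use strand, so reads of such genes cannot be told apart. Rgs2 was at 10.1 and 11.3 CPM in WT Ctrl, 127 and 98.1 in WT KCl, 15.8 and 17.2 in KO Ctrl and 62.1 and 127 in KO KCl. Its interaction was −0.88 (SE 0.51), and it was −0.45 without KO KCl replicate 1 and −1.48 without KO KCl replicate 2. Gadd45g, a stress and activity gene linked to DNA demethylation, rose 37.5-fold in WT and 30.7-fold in KO. Its levels were 29.5 and 28.3 CPM in WT Ctrl, 1196 and 973 in WT KCl, 27.0 and 25.7 in KO Ctrl and 496 and 1119 in KO KCl. The KO KCl libraries again lay on either side of a WT KCl library, and the interaction of −0.29 (SE 0.57) had a 95% interval from −1.60 to 1.02 and was 0.18 without KO KCl replicate 1.

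The 32 synaptic and secreted effectors held 6 genes that rose in WT and 6 in KO, against 0.885% and 0.416% of all genes, and 3 and 2 with the litter as a block. Leaving out 1 WT library took these calls to 0 or 1 in both genotypes, and leaving out KO Ctrl replicate 2 took the KO calls to 0. Their median response was 1.06 in WT and 0.63 in KO. By litter the medians were 1.02 and 1.10 in WT and −0.11 and 1.54 in KO, so the KO litters lay on both sides of WT. The median interaction was −0.28, and 0.09 without KO KCl replicate 1. The interaction was below 0 for 25 of the 32, with Nptx2 past the unadjusted threshold, and the ratios were separated downward in 11 and upward in 3.

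Nptx2 encodes a secreted pentraxin that gathers AMPA receptors. It was at 10.6 and 10.4 CPM in WT Ctrl and 21.1 and 34.3 in WT KCl, and at 10.3 and 10.04 in KO Ctrl and 11.1 and 13.9 in KO KCl. The 4 Ctrl libraries were close together, and both KO KCl libraries were below both WT KCl libraries. The fold was 2.64 in WT and 1.23 in KO, neither called, and the interaction was −1.10 (SE 0.47, 95% interval −2.17 to −0.03, unadjusted p = 0.0449) and −0.95 without KO KCl replicate 1. Homer1, a postsynaptic scaffold gene whose short isoform is induced by activity, was at 21.3 and 19.0 CPM in WT Ctrl and 108 and 166 in WT KCl, and at 18 and 31.8 in KO Ctrl and 83.6 and 87.0 in KO KCl. Both KO KCl libraries were the lower ones. It rose 6.79-fold in WT (edgeR adjusted p = 0.0231) and was at 3.43-fold in KO (adjusted p = 0.104), with an interaction of −0.99 (SE 0.50, unadjusted p = 0.0818). The value was −0.96 without KO KCl replicate 1 and −0.50 without KO Ctrl replicate 2.

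Arc, an effector of AMPA receptor endocytosis, was at 14.2 and 14.8 CPM in WT Ctrl, 1542 and 2601 in WT KCl, 17.6 and 31.3 in KO Ctrl and 700.0 and 3297 in KO KCl. The KO KCl libraries were the lowest and the highest. Arc rose 143-fold in WT and 81.7-fold in KO, with an interaction of −0.81 (SE 0.94), which was −0.09 without KO KCl replicate 1 and −2.32 without KO KCl replicate 2. Bdnf, a neurotrophin, was at 14.6 and 14.6 CPM in WT Ctrl and 129 and 127 in WT KCl, and at 11.2 and 9.72 in KO Ctrl and 66.7 and 96.6 in KO KCl. Its KO levels were below WT both without and with KCl, and its fold was 8.78 in WT and 7.8 in KO. Its interaction was −0.17 (SE 0.39) with a 95% interval from −1.08 to 0.73, and it was 0.07 without KO KCl replicate 1. Pcsk1, a protease that processes neuropeptide precursors, had 7.45 and 7.34 CPM in WT Ctrl, 126 and 167 in WT KCl, 2.93 and 3.31 in KO Ctrl and 78.7 and 53.9 in KO KCl. Both KO groups were below WT, and the folds of 19.9 and 21.2 gave an interaction of 0.10 (SE 0.42, 95% interval −0.86 to 1.06) that was −0.20 without KO KCl replicate 1. Pdyn, the dynorphin precursor, had the interaction farthest above 0 of the list, 1.62 (SE 0.72), with levels of 16.0 and 19.8 CPM in WT Ctrl, 12.5 and 10.6 in WT KCl, 2.4 and 7.36 in KO Ctrl and 11.6 and 7.81 in KO KCl. It was 1.31 without KO KCl replicate 1 and 2.69 without KO Ctrl replicate 2.

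**Figure D4:**
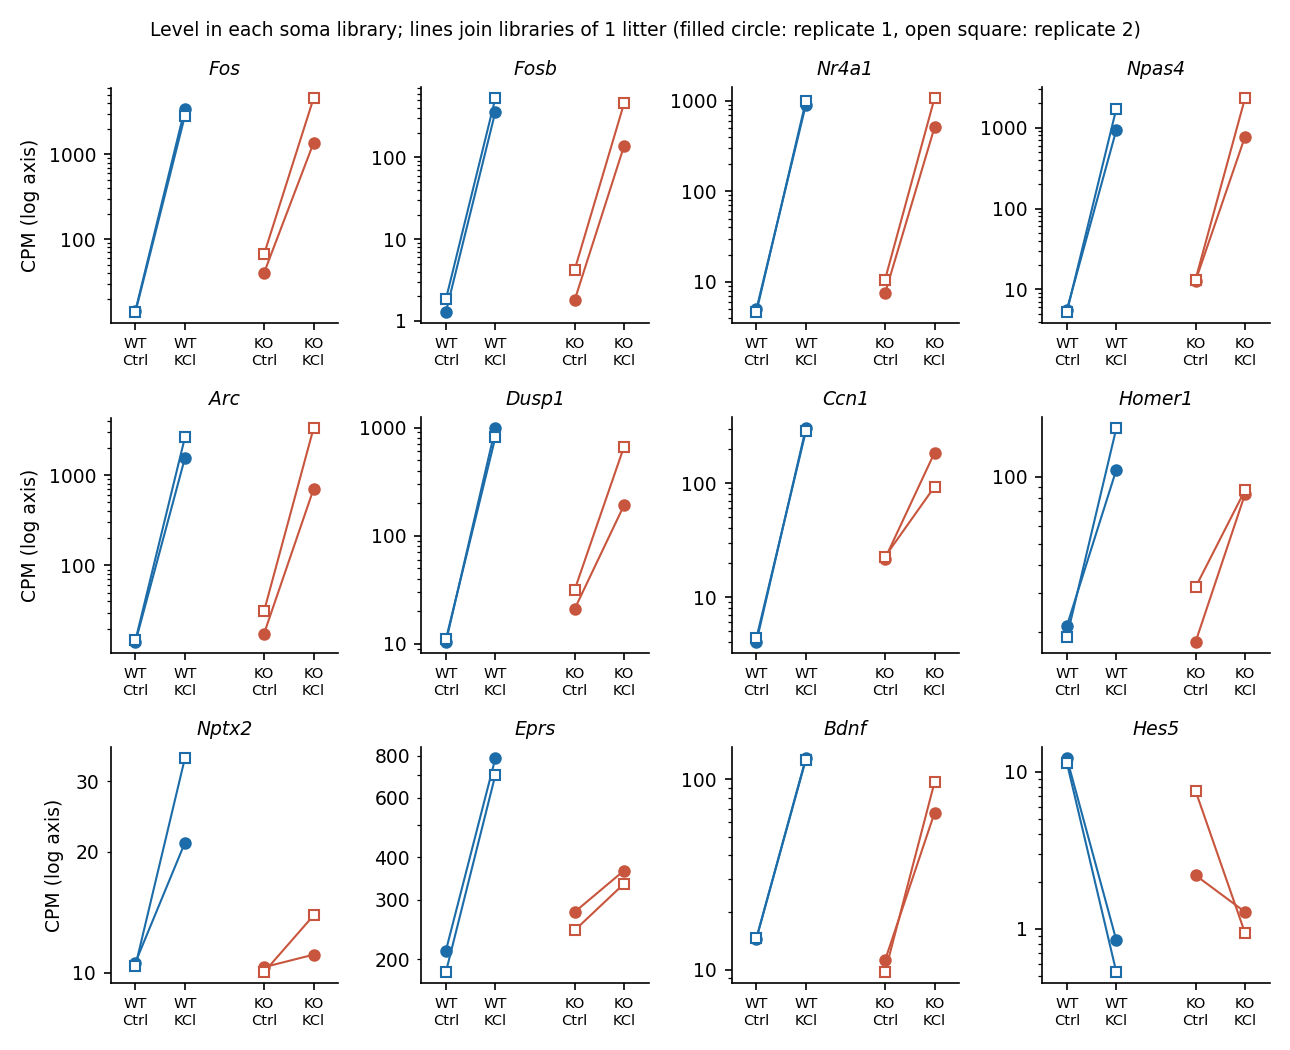
CPM (log axis) of 12 genes in each soma library, with lines from Ctrl to KCl of the same litter; filled circles are replicate 1 and open squares replicate 2, WT in blue and KO in red. For Ccn1 and Eprs the KO lines rise less steeply than both WT lines in both litters, while for Fos, Npas4 and Arc the 2 KO litters end on either side of a WT litter.

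Ccn1 had the smallest p of all genes. It encodes a secreted matricellular protein that binds integrins and is a known SRF and YAP target. Ccn1 was at 4.02 and 4.34 CPM in WT Ctrl and 304 and 286 in WT KCl, and at 21.7 and 22.6 in KO Ctrl and 185 and 93.0 in KO KCl. The KO Ctrl libraries were above WT and the KO KCl libraries below WT, with no overlap in either treatment. It rose 70.5-fold in WT and 6.27-fold in KO (edgeR adjusted p = 0.00383 and 0.04). The interaction was −3.49 (SE 0.51, 95% interval −4.67 to −2.32, unadjusted p = 0.000115) and −4.07 without KO KCl replicate 1, and its edgeR adjusted p over all genes was 0.985, while DESeq2 gave 0.000132. Without KCl the KO minus WT difference was 2.41 (SE 0.37), so the smaller fold in KO comes with a higher start as well as a lower end.

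The authors' DART-seq, in which an APOBEC1-YTH fusion edits C to U beside m6A, lists 2 sites in Ccn1 (sites were called against Mettl3 KO), which lies on the minus strand of mm10 chromosome 3 from 145646976 to 145649981. Both are in the 3′UTR, and the percentages are the authors' mean C-to-U fractions. These sequences are shown with those of 7 genes described here, because the methylated motif is the substrate of the deleted enzyme. Only the 1 or 2 most edited sites of each gene are shown, of 4 in Dusp1, 3 in Nptx2, 5 in Homer1, 12 in Eprs and 7 in Bdnf. Each is 21 bases of the RNA strand in mm10, written as DNA, with the motif RAC (the candidate methylated A before the edited C) in capitals.
Ccn1, chr3:145647533-145647553, minus strand, 3′UTR, 4.996%: tatttcaaAACtgccaagggg
Ccn1, chr3:145647625-145647645, minus strand, 3′UTR, 2.41%: gtgggctgGACagaggagaag
Dusp1, chr17:26507612-26507632, minus strand, 5′UTR or coding by transcript, 8.31%: gtgtgcctGACagtgcagaat
Dusp1, chr17:26505916-26505936, minus strand, 3′UTR, 3.03%: ccagtattAACcattcccgat
Fos, chr12:85473888-85473908, plus strand, 5′UTR, 2.04%: ccaaccgcGACtgcagcgagc
Nptx2, chr5:144557062-144557082, plus strand, 3′UTR, 11.3%: gcttctacAACaatccccaca
Nptx2, chr5:144556577-144556597, plus strand, 3′UTR, 9.71%: ggggtagtGACagaatccctg
Homer1, chr13:93359227-93359247, plus strand, 3′UTR, 6.17%: ttaactaaAACtggagtcata
Eprs, chr1:185385041-185385061, plus strand, coding, 5.87%: atctcaacAACaccgtgctgt
Eprs, chr1:185378804-185378824, plus strand, coding, 5.81%: ctcttctgAACcagcactacc
Lhfpl2, chr13:94194326-94194346, plus strand, 3′UTR, 19.4%: gtttctctGACatagaaccat
Bdnf, chr2:109724641-109724661, plus strand, 3′UTR, 13.7%: ggaattaaAACaatgtcaagg
The listed genes include interactions below 0 (Ccn1, Dusp1, Fos, Nptx2, Eprs), above 0 (Lhfpl2) and with an interval around 0 (Bdnf, Homer1). The sites carry GAC or AAC and lie in both UTRs and in coding sequence. All 18231 deposited sites hold RAC at the edited C, because the authors kept only sites in that motif. The motif is therefore no result of these data.

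Eprs had 12 listed sites, all 12 in coding sequence. It encodes glutamyl-prolyl-tRNA synthetase, which charges glutamate and proline tRNAs. Eprs was at 212 and 183 CPM in WT Ctrl and 786 and 702 in WT KCl, and at 276 and 243 in KO Ctrl and 366 and 334 in KO KCl. The KO KCl libraries were both below both WT KCl libraries and above all Ctrl libraries. It rose 3.76-fold in WT (edgeR adjusted p = 0.0293) and was at 1.35-fold in KO (adjusted p = 0.451). The interaction was −1.48 (SE 0.40, unadjusted p = 0.00601) and −1.55 without KO KCl replicate 1, and 0.985 once adjusted.

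Gm47088 is an unconfirmed transcript on chromosome 13 from 93317427 to 93319065, within Homer1 and on its strand, so its reads and those of Homer1 transcripts that cross it cannot be told apart. It was at 0.882 and 1.03 CPM in WT Ctrl and 46.1 and 52.1 in WT KCl, and at 1.55 and 2.22 in KO Ctrl and 11.4 and 19.1 in KO KCl. Both KO KCl libraries were well below WT. It rose 51.3-fold in WT and 8.08-fold in KO, with an interaction of −2.67 (SE 0.52, unadjusted p = 0.000759) against −0.99 for Homer1 as counted over its exons, and −2.34 without KO KCl replicate 1. Gm17971, a processed pseudogene within Coq10b on the same strand, was low in Ctrl and had less in KO than in WT after KCl, with 0.455 and 0.463 CPM in WT Ctrl, 7.96 and 6.82 in WT KCl, 0.97 and 0.907 in KO Ctrl and 2.98 and 3.43 in KO KCl. Its interaction was −2.23 (SE 0.51), and −2.13 without KO KCl replicate 1.

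The other genes named for a small p and a smaller response in KO were a V-ATPase subunit and non-coding RNAs. Atp6v1b1 was at 2.48 and 2.64 CPM in WT Ctrl and 3.68 and 3.15 in WT KCl, and at 1.64 and 1.13 in KO Ctrl and 0.364 and 0.4 in KO KCl, an interaction of −2.27 (SE 0.55) that was −2.20 without KO KCl replicate 1. It was lower in KO than in WT in both treatments. The 5.8S ribosomal RNA gene n-R5-8s1 was at 1.46 and 1.48 CPM in WT Ctrl, 3.15 and 5.97 in WT KCl, 6.89 and 4.38 in KO Ctrl and 2.55 and 2.12 in KO KCl. Its interaction of −2.91 (SE 0.63), −3.05 without KO KCl replicate 1, came with levels that were highest in WT KCl and KO Ctrl. Gm24187 and Gm24245, both annotated as microRNA genes, had interactions of −2.04 and −2.06 (SE 0.57 and 0.59). These were −2.06 and −2.08 without KO KCl replicate 1 and −1.27 and −1.30 without KO Ctrl replicate 2. Gm24187 was at 58.8 and 138 CPM in KO Ctrl and between 19.1 and 41.3 in all other libraries, and Gm24245 at 32.9 and 77.1 in KO Ctrl and between 10.7 and 26.2 elsewhere. Ribosomal and microRNA loci have near-identical copies and reads mapping to several places were counted, so their values are uncertain. Of 4 genes named for the size of a negative interaction, 4930413G21Rik (−3.27, SE 1.40) overlaps Rbbp6 on the other strand and was at 8.81 CPM in KO Ctrl replicate 2 against 0.606 to 2.09 elsewhere, with an interaction of −0.54 without that library and −2.71 without KO KCl replicate 1.

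Among well expressed genes (mean count of at least 100) with both KO ratios above both WT ratios, the smallest p belonged to 1700007K13Rik, at 9.97 and 10.4 CPM in WT Ctrl and 4.88 and 6.46 in WT KCl, and at 5.61 and 3.93 in KO Ctrl and 17 and 9.31 in KO KCl. The levels went down with KCl in both WT litters and up in both KO litters, and the interaction was 2.31 (SE 0.57, unadjusted p = 0.00341) and 1.81 without KO KCl replicate 1. Firre, a nuclear long non-coding RNA of the X chromosome, was at 29.8 and 33.2 CPM in WT Ctrl and 23.4 and 30.1 in WT KCl, and at 6.72 and 7.62 in KO Ctrl and 78.6 and 20.5 in KO KCl. Both KO Ctrl libraries were low, and the interaction was 3.02 (SE 0.77) and 1.75 without KO KCl replicate 1. Smpd4, a neutral sphingomyelinase, was at 47.4 and 47.3 CPM in WT Ctrl and 29.5 and 34.7 in WT KCl, and at 21.3 and 20.04 in KO Ctrl and 35.7 and 34.5 in KO KCl. The groups differed in Ctrl and met after KCl, with an interaction of 1.32 (SE 0.36) that was 1.30 without KO KCl replicate 1. Lhfpl2, a tetraspan membrane protein gene with 1 DART-seq site, was at 56.7 and 62.9 CPM in WT Ctrl, 48.2 and 53.8 in WT KCl, 43.7 and 37.5 in KO Ctrl and 71.9 and 117 in KO KCl. KO was below WT in Ctrl and above it in KCl, with an interaction of 1.44 (SE 0.43) and 1.75 without KO KCl replicate 1. Colgalt2, a collagen galactosyltransferase gene, had an interaction of 1.99 (SE 0.62) and the 1700017B05Rik gene 1.31 (SE 0.39), and 1.42 and 1.19 without KO KCl replicate 1. The latter fell in WT, from 35.2 and 36.7 to 8.004 and 10.1 CPM, and went from 21.4 and 22.3 to 14.8 and 12.6 in KO. None of these genes was called after adjustment.

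Among genes averaging 100 or more counts, with separated ratios and an unadjusted p past the threshold, the largest positive interactions were those of Bmp4, Zfp488, Pf4 and Fa2h, at 8.61, 7.81, 7.47 and 6.81 (SE 3.17, 2.92, 2.69 and 2.44). Zfp488 and Fa2h belong to oligodendrocyte differentiation and myelin lipid synthesis, and Pf4 is a chemokine of platelets and macrophages. Each was between 19.0 and 27.0 CPM in KO KCl replicate 1 and at 0.193 CPM or less in the 7 other libraries. They met the mean count of 100 only through KO KCl replicate 1, and the ratios of the other litters rest on few fragments. In this library the marker sums of the oligodendrocyte lineage and microglia were also highest. Without it the interactions were 1.97, 0.68, 0.30 and 0.74.

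The 19 repressors and clock output genes include Hes, Hey and Id proteins and genes known to fall with activity. Hes5 fell in WT, a call that was lost with the litter as a block and without any 1 of the 4 WT libraries, and no member was called in KO. The median interaction was 0.29, and 0.28 without KO KCl replicate 1, with 13 values above 0. Past the unadjusted threshold, 3 had a higher ratio in KO, namely Bcl6, Txnip and Hes5, and none a lower one, and without KO KCl replicate 1 none of the 19 passed it. Hes5, a Notch target that holds progenitors undifferentiated, was at 12.2 and 11.4 CPM in WT Ctrl and 0.844 and 0.529 in WT KCl, and at 2.19 and 7.58 in KO Ctrl and 1.28 and 0.941 in KO KCl. Its KO Ctrl level was lower and its KO KCl level higher than in WT, and the interaction was 1.98 (SE 0.82, unadjusted p = 0.0419), 1.74 without KO KCl replicate 1 and 3.18 without KO Ctrl replicate 2. Txnip, an inhibitor of thioredoxin, was at 32.01 and 42.2 CPM in WT Ctrl and 9.2 and 5.19 in WT KCl, and at 14.4 and 24.0 in KO Ctrl and 14.3 and 8.07 in KO KCl. The KO ratio was closer to 0 than the WT ratio, with an interaction of 1.59 (SE 0.62) that was 1.12 without KO KCl replicate 1. Bcl6, a transcriptional repressor, was at 11.2 and 12.5 CPM in WT Ctrl and 10.1 and 6.44 in WT KCl, and at 7.19 and 2.78 in KO Ctrl and 14.2 and 11.2 in KO KCl, an interaction of 1.87 (SE 0.68) that was 1.69 without KO KCl replicate 1. Id3 had the value farthest above 0 (2.98, SE 1.42), from 67.3 CPM in KO KCl replicate 1 against 1.59 to 6.03 elsewhere, and was at 0.14 without that library.

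With the litter as a block, DESeq2 called 8 genes as larger and 4 as smaller in KO, where edgeR with the same block called 0 and had 457 and 367 unadjusted. The smaller ones were Ccn1, Gm47088, Dusp1 and n-R5-8s1. The larger ones were Bmp4, Cyba, a subunit of the phagocyte NADPH oxidase, and 6 Hist1h2a genes. Each DESeq2 call other than Ccn1 was absent without the block. Cyba was at 61.2 CPM in KO KCl replicate 1 and between 1.43 and 7.6 elsewhere, and its interaction of 3.14 (SE 1.35) was 0.96 without that library.

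The Hist1h2a genes, apart from the pseudogenes named below, encode replication-dependent H2A histones in the cluster on chromosome 13. The Hist1h2a genes were looked at as a family after their values had been seen. Of 14 tested, 13 had log2 KCl-to-Ctrl ratios below 0 in both WT litters and above 0 in both KO litters. Over the 13 genes the median ratio was −1.10 and −1.28 in the WT litters and 1.88 and 1.37 in the KO litters. Their summed level was 73.9 and 65.1 CPM in WT Ctrl and 36.7 and 22.5 in WT KCl, and 50.0 and 16.4 in KO Ctrl and 178 and 44.7 in KO KCl. The KO Ctrl and KO KCl libraries overlap in these sums while each litter moved upward. Interactions lay between 1.52 and 3.39 (SE 0.63 to 1.28), with unadjusted p from 0.011 to 0.0414. Without KO KCl replicate 1 they lay between 0.91 and 1.91, and 3 of the 14 passed the unadjusted threshold. In that library the dividing cell markers were also highest, at 496 CPM against 70.6 to 134, while all 63 histone genes tested summed to 873 CPM there, against 388 to 975 in the other libraries. Other histone families did not share this pattern of ratios, but some shared a low KO Ctrl replicate 2. All 63 genes summed to 388 CPM in that library, the lowest sum. Hist1h2b genes summed to 88.8 CPM there against 309 to 422 elsewhere, and Hist1h4 genes to 23.0 against 53.9 to 132. Hist1h3 genes were not low there, at 94.6 CPM against 67.2 to 141 elsewhere. The 15 Hist1h2b genes had interactions above 0 (median 0.66) with no separated ratios, all 9 Hist1h3 genes were below 0 (median −0.94) with 8 separated downward, and 9 of 11 Hist1h4 genes were below 0 (median −0.13). Over the 63 genes 36 were above and 27 below 0. The median difference of ratios against WT litters 1 and 2 was −0.39 and −0.20 for KO litter 1, and 1.67 and 1.79 for KO litter 2. The Hist1h2a genes are near-identical in sequence and reads that map to several places were counted for each, so the 13 values are not independent of each other. Hist1h2aj is annotated as a pseudogene. The exception, Hist1h2al, is a processed pseudogene outside the cluster. It starts at 51202727 on chromosome 13, while the other 13 lie between 21716422 and 23751598. Hist1h2al was at 10.3 and 8.17 CPM in WT Ctrl, 14.5 and 12.8 in WT KCl, 20.9 and 1.94 in KO Ctrl and 12.6 and 16.1 in KO KCl.

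**Figure D5:**
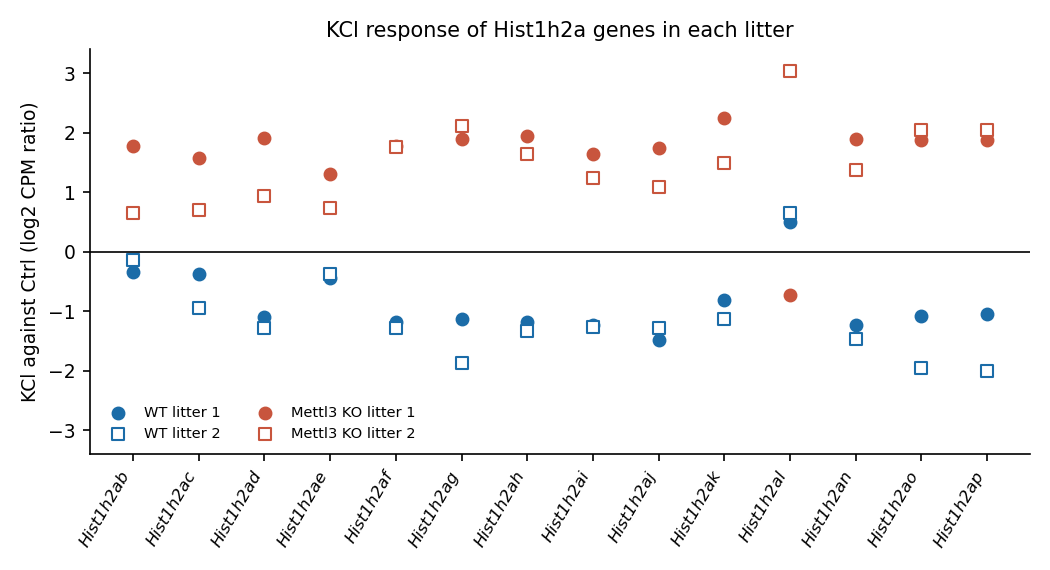
Log2 CPM ratio of KCl to Ctrl for each of 14 Hist1h2a genes; blue is WT, red KO, filled circles litter 1 and open squares litter 2. In 13 genes both KO litters lie above 0 and both WT litters below it, and Hist1h2al is the exception.

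The genes upstream of the response had no member past either threshold. Of 35 calcium channels, calmodulins, kinases and CREB pathway genes, 26 had an interaction below 0, the median was −0.32, and 12 were separated downward and 2 upward. Without KO KCl replicate 1, where the neuron markers were lowest, the median was −0.07. Ppp3ca, a calcineurin subunit, was farthest from 0 at −1.21 (SE 0.87), with 312 and 1331 CPM in KO Ctrl and 213 and 399 in KO KCl. Its KO Ctrl libraries differed more from each other than the replicates of any other group, and without KO Ctrl replicate 2 the interaction was 0.20. Cacna1a, the P/Q-type channel, had the smallest p at −0.74 (SE 0.45, unadjusted p = 0.14), and was at −0.45 without KO KCl replicate 1.

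The 21 m6A writers, readers and erasers had a median interaction of −0.00 with a median SE of 0.41, and none passed the unadjusted threshold. Ythdc1, the nuclear reader, rose in WT, a call lost with the litter as a block and without any 1 of the 4 WT libraries. Ythdf1, a cytoplasmic reader, was farthest from 0 at −0.92 (SE 0.51), with 25.4 and 25.7 CPM in WT Ctrl, 23.1 and 17.8 in WT KCl, 36.6 and 72.5 in KO Ctrl and 20.9 and 25.2 in KO KCl. Its KO Ctrl libraries were the high ones, and the value was −0.80 without KO KCl replicate 1 and −0.32 without KO Ctrl replicate 2. Of 14 p53 target genes, Pmaip1 was past the unadjusted threshold at −1.32 (SE 0.50), or −1.0 without KO KCl replicate 1, and the median was 0.07. Pmaip1, which encodes the BH3-only protein Noxa, was at 22.1 and 25.7 CPM in WT Ctrl and 104 and 79.0 in WT KCl, and at 15.7 and 23.2 in KO Ctrl and 22.4 and 37.5 in KO KCl, with both KO KCl libraries below both WT KCl libraries.

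Lists of glial, immune and dividing cell genes had the interactions farthest above 0, and these rested on KO KCl replicate 1. The median was 3.93 for 10 oligodendrocyte lineage markers (4 past the unadjusted threshold), 3.59 for 10 dividing cell markers (3), 2.17 for 10 microglia markers (2), 0.89 for 11 astrocyte markers (0) and 0.67 for 14 fibroblast and vascular markers (1, smaller). Without that library the medians were −0.79, −0.16, −0.23, −0.27 and −0.95, and 0 members had a larger value past the unadjusted threshold. Pdgfra, a growth factor receptor of oligodendrocyte precursors, was at 129.7 CPM in KO KCl replicate 1 and between 0.222 and 0.998 in the other libraries. C1qa, a complement component of microglia, was at 104 CPM in that library and between 0.961 and 3.998 in the others, and the mitotic kinase Cdk1 at 37.4 and between 0.0705 and 0.343. Their interactions of 6.46, 3.61 and 6.31 were −0.32, −0.14 and −1.70 without that library. The 13 neuron markers had a median of −0.70 and the 12 interneuron markers of −0.72, and −0.11 and 0.01 without the library. Prox1, a marker of dentate granule neurons, ran against its list at 1.19 (SE 0.44, unadjusted p = 0.0253), with 181 and 190.4 CPM in WT Ctrl, 116 and 131 in WT KCl, 134 and 122 in KO Ctrl and 150.3 and 238 in KO KCl, and it was 1.48 without KO KCl replicate 1.

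The 17 tested of 22 inflammatory and NF-kB genes had a median interaction of 0.84, with Lcn2, Tnfaip3 and Cxcl10 past the unadjusted threshold, and −0.28 and none without KO KCl replicate 1. Cxcl10, an interferon-induced chemokine, was at 4.97 CPM in that library and between 0.165 and 0.494 elsewhere. Nfkbiz, a nuclear IkB protein, rose in both genotypes, from 6.19 and 5.99 to 16.8 and 19.7 CPM in WT and from 8.66 and 7.56 to 43.2 and 44.0 in KO. The KO KCl replicates were close for this gene, and its interaction was 0.84 (SE 0.38, unadjusted p = 0.0586), and 0.86 without KO KCl replicate 1. Both calls were lost with the litter as a block and without any 1 of the 4 WT libraries, and the KO call also without KO Ctrl replicate 2. The 24 interferon-stimulated genes had a median of 0.65, none past the unadjusted threshold, and −0.10 without the library. The part of these markers in the interactions of other genes was not tested.

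Genes were also grouped by their number of deposited DART-seq sites. The median interaction was 0.09 for 18537 genes without a site, −0.06 for 3703 genes with 1 to 3, −0.25 for 1399 with 4 to 7 and −0.19 for 419 with 8 or more. The shares past the unadjusted threshold were 2.76, 1.13, 0.643 and 1.67%, against 2.37% of all genes. Over the 4 combinations of a KO and a WT litter the medians ran from 0.012 to 0.040, from −0.19 to −0.028, from −0.36 to −0.12 and, in the last group, from −0.67 to 0.17, so the sign changed with the litters in the last group and held in the other 3. Site number went with level, since the median mean count was 132 in genes without a site and 7514 in those with 8 or more, and the part of level was not tested. Among list members and genes ranked by p, the most sites were found in Map2 (16), a dendritic microtubule protein, Eprs (12), the clock gene Per1 and the phosphatase Dusp4 (11 each), and Nr4a1 and the calcium channel subunit Cacnb3 (10 each). Their interactions were −0.37, −1.48, 0.13, 0.82, −1.18 and −0.69, so genes with many sites lay on both sides of 0. They were −0.18, −1.55, 0.51, 1.44, −0.74 and −0.24 without KO KCl replicate 1, and without KO KCl replicate 2 Per1 and Dusp4 were −0.40 and −0.32.

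The neurite libraries of the same cultures gave the same kind of contrast on other RNA. In 22311 genes edgeR called 0 in either direction, with 320 larger (1.43%) and 293 smaller (1.31%) unadjusted. The neurite interaction of Ccn1 was −1.38, that of Gm47088 −2.04, that of Eprs −0.90, that of Fos −1.42 and that of Dusp1 −0.94, each on the same side of 0 as in soma. The SEs were 0.70 for Ccn1, 1.17 for Gm47088, 0.32 for Eprs and 0.95 for Dusp1. Neurite KO KCl libraries lay on either side of WT KCl for Ccn1 (245 and 94.2 CPM against 162 and 149) and Dusp1 (119 and 623 against 474 and 560). Both lay below WT KCl for Gm47088 and Eprs. Lhfpl2 had 1.07 (SE 0.27), Smpd4 1.18 (SE 0.32), Firre 2.58 (SE 1.21) and Hes5 1.83, also on the soma side. Soma and neurites come from the same inserts and litters, so these values are no independent replicate. Of the 73 genes named by rule or in the text, 67 lay on the soma side of 0 in neurites. The other 6 were Mettl3 (0.44), Vtn (3.92), Vip (0.27), Atf3 (0.15), Dusp4 (−0.085) and Per1 (−0.41). Many of the 73 were named for a large or small-p soma interaction, and the share over all genes was not counted. The number 67 is therefore no measure of agreement. The neurites of KO KCl replicate 1 also stood apart in genes that were high in its soma. Firre was at 67.8 CPM there against 4.02 to 14.8 in the other neurite libraries. Bmp4 was at 44.6 against 0 to 0.134, Zfp488 at 44.7 against 0.0173 to 0.165 and Fa2h at 58.0 against 0.0309 to 0.180. No neurite fit left this library out.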

How the data were processed

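Primary hippocampal neurons were grown on microporous membranes, and soma and neurites were collected from the 2 faces. RNA (50 ng) was made into low-input libraries and sequenced in pairs of reads. The deposited table holds raw counts per gene, which the authors made with STAR 2.7.7a on mm10 and featureCounts 2.0.1 with Ensembl annotation; fragments mapping to several places were counted, no strand setting is given, and mitochondrially encoded genes were left out here. The DART-seq table gives sites with a C-to-U fraction that the authors averaged over WT libraries, for sites called against Mettl3 KO libraries. Deposited tables of the authors' own comparisons (fold changes and p-values) were not used.

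Genes averaging 10 or more counts in the 8 soma libraries were fitted in R 4.3.3 with edgeR 4.0.16 (TMM, 1 coefficient per group, quasi-likelihood test, Benjamini-Hochberg adjustment), and a call needed an adjusted p of at most 0.05 and 2-fold. Unadjusted counts used p of at most 0.05 and 2-fold. Alternatives were DESeq2 1.42.0, limma 3.58.1 with sample weights, DESeq2 size factors, other count filters, all 16 libraries, a litter block, and each library left out. The model was also run on counts simulated from its own fit, with equal dispersion in all groups. Such counts cannot show whether the model suits these data. CPM values use TMM library sizes. Depth was 41530537 to 71394235 fragments per library. SE and intervals come from a dispersion per gene that is pooled over the 4 groups of 2 libraries and moderated across genes. They do not measure the spread within a single group. The common biological coefficient of variation (square root of the dispersion) was 0.147 in WT soma, 0.490 in KO soma and 0.366 over the 8 libraries. SEs of WT responses therefore also hold the spread of the KO libraries, and SEs of KO responses may be too small.

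Replicates came from different litters, and a shared replicate number was assumed to mark a litter within a genotype, since the methods state that Ctrl and KCl came from 1 litter but not which number marks it. Deviations of same-numbered Ctrl and KCl libraries from their group means correlated at 0.033 in WT and 0.137 in KO, and the block is given as an alternative. The genes, lists and tests were chosen with earlier results of these data known. Named were Mettl3, 12 set activity genes, the member of each list with the largest interaction and that with the smallest p, the 8 genes per direction with the smallest p and the 4 with the largest interaction (mean count of at least 100, ratios separated), and the genes with the most DART-seq sites. One gene that this rule names is not reported here. Hist1h2a genes, DESeq2 calls under the block and Atf3, Cebpd, Egr3, Myc, Nfkbiz, Rgs2, Tnfaip3, Txnip and Ythdc1 were named after their values were seen. Site sequences were read from the mm10 genome.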

Additional observations from a re-analysis of the deposited data

Results flagged for a closer look

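In 17 of the named genes both WT litters moved one way with KCl and both KO litters the other way. This happened in 1844 of all genes tested (7.66%), of which 979 went up in WT and down in KO and 865 the reverse. Most of the 17 were named by a rule that asked for separated ratios with a small p or a large interaction. Opposite sides were thus favoured in advance, and the 17 cannot be read as an excess over that share. The interaction is the test of the difference, and none of the 17 passed it after adjustment (edgeR adjusted p = 0.985 for each).

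Ratios went down in WT and up in KO for Zfp488, with an interaction of 7.81 that was 0.68 without KO KCl replicate 1. In the other libraries Zfp488 was near the floor, at 0.0303 to 0.185 CPM. Its directions in WT and in KO litter 2 therefore rest on few fragments. The same direction was seen for Hist1h2an (3.14), Hist1h2aj (3.02), Firre (3.02), 1700007K13Rik (2.31), Colgalt2 (1.99) and the repressor Bcl6 (1.87). It was also seen for the dynorphin precursor Pdyn (1.62), the membrane protein gene Lhfpl2 (1.44), the sphingomyelinase Smpd4 (1.32) and the dentate granule cell marker Prox1 (1.19).

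Ratios went up in WT and down in KO for 4930413G21Rik (−3.27), the 5.8S rRNA gene n-R5-8s1 (−2.91), the V-ATPase subunit Atp6v1b1 (−2.27), Gm24245 (−2.06), Gm24187 (−2.04) and the interneuron peptide Vip (−1.62). The summed interneuron markers were lowest in KO KCl replicate 1, and the value of Vip was −0.75 without that library and −3.95 without KO KCl replicate 2.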

How the results depend on the processing

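Under edgeR the interaction had 0 calls in either direction, and 312 larger and 258 smaller values in KO at an unadjusted p with 2-fold. Without a count filter, 48316 genes were tested and 241 and 24 were called (1621 and 655 unadjusted). Of these 265 calls, 239 had their highest count in KO KCl replicate 1, and 263 had a mean count of at least 10. With a mean count of at least 100 the unadjusted counts were 136 and 103. With all 16 libraries 195 were larger unadjusted, DESeq2 gave 521 larger and 1 call as smaller, and limma 170 smaller. The paired analysis (replicate block) left the edgeR count at 0, while DESeq2 with the block called 8 and 4 (523 larger unadjusted). Without KO litter 1 the counts were 1884 and 633 (2804 and 1300 unadjusted), and without KO litter 2 2597 and 1321 (3456 and 2019). These 2 fits and the neurite fit were chosen after seeing the data. Leaving out 1 library gave 0 to 687 larger and 0 to 100 smaller calls, and 85 to 2534 and 61 to 1904 unadjusted. The cause was not tested.

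The KCl response in WT had 64 rises and 0 falls with the block, 555 and 197 with DESeq2, 1050 and 903 without KO litter 1, 1030 and 863 without KO litter 2, and 8 falls at a mean count of at least 100. In KO these were 25 and 0, 953 and 524, 3186 and 1948, and 3745 and 2094, with 225 and 44 when all 16 libraries were used. Leaving out 1 library gave 0 to 322 rises and 0 to 53 falls in WT, and 0 to 2134 and 0 to 1072 in KO.

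Of 73 named genes, 58 kept 1 side of 0 in all soma settings. Over the soma settings and the neurite fit together, 1344 of 1383 values had the main direction. Many of these genes were named for a large or small-p interaction, and most settings refit the same libraries. The share over all genes was not counted, so these counts do not measure how stable the results are. Over the left-out libraries the sign changed in Mettl3 (−0.48 to 0.042), Egr1 (−2.17 to 0.26), Bdnf (−0.46 to 0.073), Pcsk1 (−0.20 to 0.34), Gadd45g (−0.99 to 0.18), Ppp3ca (−1.91 to 0.20), Atf3 (−1.91 to 0.026), Dusp4 (−0.32 to 1.44) and Per1 (−0.40 to 0.78). It also changed in Hist1h2al (−1.09 to 2.32), Pdgfra (−0.32 to 7.66), C1qa (−0.14 to 4.56), Cx3cr1 (−0.28 to 4.95), Cldn5 (−2.004 to 5.23) and Cdk1 (−1.70 to 7.31). Without KO litter 1, Egr1 was at 0.33, Bdnf 0.18, Pcsk1 −0.29, Gadd45g 0.22, Atf3 0.058, Hist1h2al 2.49, C1qa −0.079, Cx3cr1 −0.66 and Cdk1 −1.53. Without KO litter 2, Mettl3 was at 0.30, Dusp4 −0.60 and Per1 −0.42. In neurites Mettl3 was at 0.44, Vip 0.27, Vtn 3.92, Atf3 0.15, Dusp4 −0.085 and Per1 −0.41. Hist1h2al was at 0.55 with the block (0.55 in DESeq2) and 0.60 in limma. Without KO KCl replicate 1, 11 of 16 list medians changed sign and 8 moved by more than the SD of the medians over the 4 pairings of a KO and a WT litter, and 0 moved that far under DESeq2. The median of genes without DART-seq sites was 0.12 at a mean count of at least 100 and 0.063 under DESeq2. With 2 libraries per group, only large differences can be resolved.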
